A study of Mus musculus with 6 samples.

Results

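Simple epithelial keratins were described in the kidney cortex of mice of the inbred strain C57BL/6, 24 h after ischemia/reperfusion and after sham surgery. The group is made of 7 genes taken by their symbols, Krt7, Krt8, Krt18, Krt19, Krt20, Krt23 and Krt80, out of 54 keratin genes and 21957 genes with values in every library. The injured group, IR24h, holds 3 libraries from mice whose renal pedicles were clipped on both sides for 30 min and that were killed 24 h after the clamps came off, a model of acute kidney injury. The reference is 3 sham libraries. The labels mark all 6 libraries as wild type (WT), name no agent, and give neither age nor sex. The labels do not tie libraries to single animals, so p-values measure the spread between these libraries, which may be technical.

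Keratins are the intermediate filament proteins of epithelial cells. A filament is built from pairs in which a type I keratin joins a type II keratin, and a cell that makes too much of one partner generally degrades the excess protein. Krt8 and Krt18 are the basic pair of simple, single-layered epithelia, where the filaments protect cells against mechanical and toxic stress. Krt7 and Krt19 are typical of ducts, Krt20 of the gut lining and of the surface cells of the urothelium, the epithelium of the urinary tract. In the kidney, keratin filaments are found mainly in the collecting duct and other distal segments and are sparse in the healthy proximal tubule, and keratins of this group are known to be induced in injured tubules.

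The libraries differed in ways that touch every value below. Totals were 12877853 to 16000942 counts in IR24h libraries and 14339985 to 17061844 counts in sham libraries. Genes of the mitochondrial genome took 68.9, 26.2 and 49.2% of the counts in IR24h libraries 1, 2 and 3, against 13.1 to 14.2% in sham libraries. Markers of the cortex were present in all libraries. Slc34a1, the phosphate transporter of the proximal tubule, had 201, 432 and 291 CPM in IR24h libraries 1 to 3, against 5484, 6102 and 6020 CPM in sham libraries 1 to 3. Umod, the uromodulin gene of the thick ascending limb, had 1243 to 3759 CPM in IR24h libraries and 1207 to 1811 CPM in sham libraries. CPM are counts relative to library size after TMM scaling, which sets libraries level on the bulk of their genes. In bulk tissue, fewer cells of a type and less RNA per cell cannot be told apart. The gene length behind the authors' FPKM values, which divide counts by gene length and library size, differed between the groups for 13.1% of 12806 genes compared, and for 4 of the 7 keratins. Gene models thus differed between the groups, and this difference and the injury cannot be told apart.

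Of the 7 keratins, 5 rose in the injured cortex (Krt7, Krt8, Krt18, Krt19 and Krt20), the counts of Krt80 fell, and Krt23 did not pass the test. All 7 passed the filter on low counts, although Krt19 and Krt20 were so low in sham that the IR24h libraries carried them through it. Genes were called at an adjusted p under 0.05 (edgeR quasi-likelihood test, Benjamini-Hochberg adjustment over all genes tested). Of 13609 genes tested, 8.65% were called higher and 7.62% lower, 16.3% in either direction. The median log2 fold change was 1.71 over the 7 keratins and 0.05 over all genes tested. For 5 keratins all IR24h libraries lay above all sham libraries, which was so for 19.9% of all genes, and for Krt80 they lay below, as for 21.7%. Summed over the 7 genes, the level was 741, 824 and 919 CPM in IR24h libraries 1 to 3, against 181, 171 and 258 CPM in sham libraries 1 to 3.

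**Figure D1:**
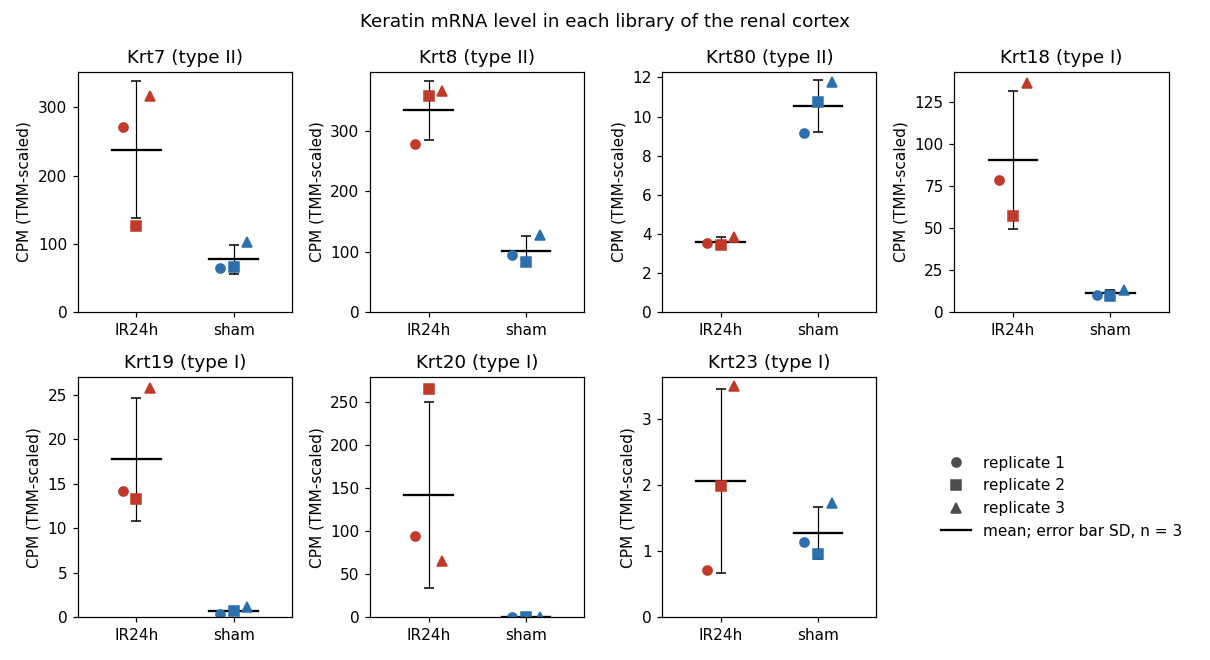
Level of each keratin in every library, in TMM-scaled CPM on a linear axis of its own for each gene. Points are libraries, the horizontal line is the mean and the error bar the SD over 3 libraries. Krt7, Krt8, Krt18, Krt19 and Krt20 were higher in all IR24h libraries than in all sham libraries, Krt80 lower, and the libraries of Krt23 overlapped.

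Among the type I keratins, the largest difference was that of Krt20 (ENSMUSG00000035775; chromosome 11, 99428403 to 99438150 on the minus strand, GRCm38). It had 666, 5186 and 749 counts in IR24h libraries 1 to 3, against 0, 1 and 5 counts in sham libraries 1 to 3. In CPM this was 94.6, 265 and 65.5 in IR24h libraries and 0, 0.0481 and 0.270 in sham libraries, so the gene was near absent from sham cortex and abundant in every injured library. IR24h library 2 stood above the other IR24h libraries, 4.05 times the lowest of them. The mean was 142 ± 108 CPM in IR24h and 0.106 ± 0.144 CPM in sham (SD, n = 3 each). The log2 fold change was 10.29 ± 1.03 (SE; adjusted p = 0.00158), and 3 of the 13609 genes tested had a higher one. Over the pooled counts the ratio was 1644, with a 95% exact counting interval of 755 to 4482, which covers counting error and not the spread between libraries. The fold rests on 6 sham counts, 5 of them in sham library 3: without that library the log2 fold change was 12.05 (adjusted p = 0.0134), and without IR24h library 2 it was 9.45 (adjusted p = 0.000206).

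Krt23 lies 39.8 kb from Krt20 in the same type I cluster on chromosome 11 (ENSMUSG00000006777; 99477974 to 99493137, minus strand). It is a type I keratin known to be inducible by stress in mouse liver. Its counts were 5, 39 and 40 in IR24h libraries and 20, 20 and 32 in sham libraries. In CPM this was 0.710, 1.99 and 3.50 in IR24h, against 1.14, 0.962 and 1.73 in sham, with the lowest and the highest library both in IR24h. The log2 fold change was 0.72 ± 0.59 (SE; adjusted p = 0.427), and it lay between 0.16 and 1.09 with any 1 library left out. To set these neighbours side by side, the 250 bases before the start of each gene are printed on the gene's own strand, from RefSeq (GRCm38.p6), at chr11:99438154-99438403 for Krt20 and chr11:99493121-99493370 for Krt23. Capitals mark matches to the motifs searched.
Krt20: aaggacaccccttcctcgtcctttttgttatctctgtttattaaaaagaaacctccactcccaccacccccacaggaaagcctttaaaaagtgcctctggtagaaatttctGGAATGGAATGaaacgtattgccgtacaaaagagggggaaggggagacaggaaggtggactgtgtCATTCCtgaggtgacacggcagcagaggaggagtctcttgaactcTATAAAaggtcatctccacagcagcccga
Krt23: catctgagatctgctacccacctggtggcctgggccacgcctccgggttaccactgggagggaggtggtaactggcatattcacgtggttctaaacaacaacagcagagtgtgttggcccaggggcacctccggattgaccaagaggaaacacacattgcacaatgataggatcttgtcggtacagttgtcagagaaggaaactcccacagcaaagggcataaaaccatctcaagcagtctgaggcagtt

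Motifs were searched on both strands as exact letters, and a match is a description, not a binding site. The Krt20 stretch held 1 TATA box (TATAAA), 29 to 24 bases before the start, and 3 matches to the core of TEAD sites (GGAATG). The first of these, 139 to 134 bases before the start, shares 1 base with the next, at 134 to 129, and the last lies on the opposite strand at 74 to 69. The Krt23 stretch held none of the motifs searched. Of 32851 promoters of the same length in the table, 12.4% held the TATA box and 12.6% the TEAD core. Neither stretch held the AP-1 motif TGANTCA (6.75% of promoters), the GC box GGGCGG (32.7%) or the STAT motif TTCNNNGAA (7.02%). Promoters were matched for 5 of the 7 keratins, and the stretches of Krt8 and Krt18 held none of the motifs, that of Krt7 4 GC boxes.

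Krt18, the type I partner of Krt8, lies on chromosome 15 beside the type II cluster (ENSMUSG00000023043; 102028180 to 102032027, plus strand). It had 552, 1119 and 1564 counts in IR24h libraries and 181, 205 and 248 counts in sham libraries. In CPM this was 78.4, 57.2 and 137 in IR24h, against 10.3, 9.86 and 13.4 in sham. Every injured library was thus well above the sham libraries, which lay close together. Krt18 rose by a log2 fold change of 3.02 ± 0.39 (SE; adjusted p = 0.00405), and it was called in each of the 6 fits that left out 1 library (adjusted p = 0.000441 to 0.0349).

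Krt19, the smallest keratin, a type I partner in ducts that lacks most of the tail domain, lies on chromosome 11 (ENSMUSG00000020911; 100140810 to 100148665, minus strand). Its counts were 100, 261 and 294 in IR24h libraries and 6, 16 and 21 in sham libraries. Scaled levels were 14.2, 13.3 and 25.7 CPM in IR24h, against 0.343, 0.769 and 1.13 in sham, with no overlap. Krt19 rose by 4.55 ± 0.53 on the log2 scale (SE; adjusted p = 0.00299) and stayed called with any 1 library left out (adjusted p = 0.000688 to 0.0248). Krt18, Krt19 and Krt20 were called in the same direction under each of the other scalings, filters and tests that were tried.

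Among the type II keratins, Krt8 was the most abundant of the group in both conditions (ENSMUSG00000049382; chromosome 15, 101996698 to 102004482, minus strand). It had 1959, 6989 and 4190 counts in IR24h libraries and 1670, 1720 and 2369 counts in sham libraries. In CPM this was 278, 357 and 366 in IR24h, against 95.4, 82.7 and 128 in sham, and the groups did not overlap. The mean was 334 ± 48.4 CPM in IR24h and 102 ± 23.3 CPM in sham (SD, n = 3 each). The log2 fold change was 1.71 ± 0.28 (SE; adjusted p = 0.00959). The call was lost without sham library 1 or 2 (adjusted p = 0.0723 and 0.0748), and where libraries were scaled by their totals alone (log2 fold change 1.31, adjusted p = 0.137). Of the 50-base stretches of its annotated transcripts, 29.7% also occur in transcripts of other genes, most of them (26.9%) in the pseudogene Krt8-ps, so reads of Krt8 may have been split or shared.

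Krt7, the type II keratin of ducts, lies near the other end of the cluster, 40.9 kb from Krt80, which is further out (ENSMUSG00000023039; chromosome 15, 101411043 to 101430313, plus strand). It had 1909, 2459 and 3631 counts in IR24h libraries and 1135, 1367 and 1897 counts in sham libraries. Scaled levels were 271, 126 and 317 CPM in IR24h, against 64.8, 65.7 and 102 in sham. IR24h library 2 came close to the highest sham library, and the other injured libraries were well above it. Krt7 rose by 1.62 ± 0.40 on the log2 scale (SE; adjusted p = 0.0347), near the threshold. Leaving out IR24h library 1 or 3 or sham library 1, 2 or 3 ended the call (adjusted p = 0.086, 0.0857, 0.149, 0.152 and 0.084), as did scaling by library totals alone (log2 fold change 1.05, adjusted p = 0.177). Without IR24h library 2 the log2 fold change was 1.92 (adjusted p = 0.00151).

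Krt80, a type II keratin of differentiating epithelia, went the other way in counts (ENSMUSG00000037185; chromosome 15, 101347444 to 101370162, minus strand). It had 25, 67 and 44 counts in IR24h libraries and 160, 223 and 218 counts in sham libraries. Scaled levels were 3.55, 3.42 and 3.85 CPM in IR24h, against 9.14, 10.7 and 11.8 in sham, with no overlap and little spread in either group. The log2 fold change was −1.55 ± 0.28 (SE; adjusted p = 0.0132). The call was lost without sham library 1, 2 or 3 (adjusted p = 0.0597, 0.08 and 0.0806). The direction depended on the gene model: the length implied by count and FPKM was 1774 bases in IR24h libraries and 10348 bases in sham libraries, 5.83 times as long in sham. The authors' FPKM were 1.09, 2.36 and 1.87 in IR24h libraries, against 0.999, 1.17 and 1.20 in sham libraries. With the implied length of each group as an offset in the fit, an alternative added after the data were seen, the log2 fold change was 0.996 ± 0.278 (adjusted p = 0.0444; 11.7% of all genes were called higher in that fit). GENCODE M21 (GRCm38) lists 6393 exon bases for Krt80. Whether its mRNA rose or fell cannot be told from these values.

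**Figure D2:**
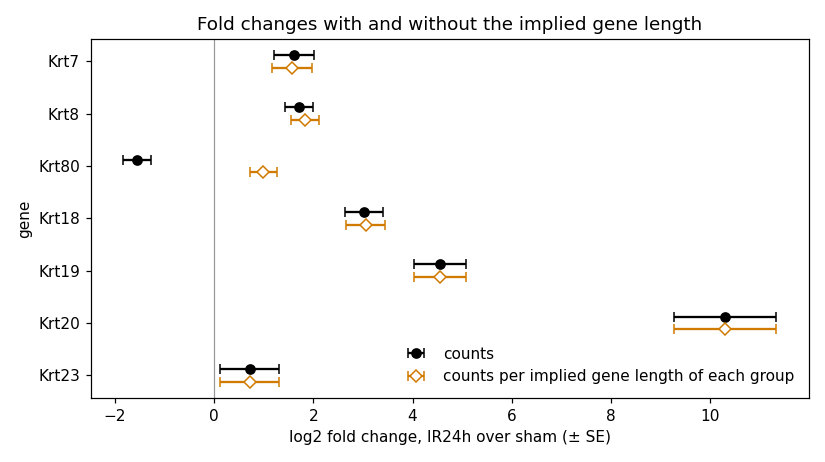
Log2 fold change of each keratin, IR24h over sham, with its SE, from counts (filled circles) and with the implied gene length of each group as an offset (open diamonds). Krt80 was at −1.55 by counts and at 0.996 with the offset, while the values of the other keratins moved little.

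The other gene models differed less. The implied length of Krt8 was 1805 bases in IR24h and 1958 bases in sham, that of Krt18 1400 bases in IR24h and 1437 bases in sham, and that of Krt7 8594 bases in IR24h and 8328 bases in sham. With the offset, Krt8 changed by 1.83, Krt18 by 3.06 and Krt7 by 1.57 on the log2 scale, and each was called (adjusted p = 0.00604, 0.00311 and 0.0334). For Krt19, Krt20 and Krt23 the lengths were equal in the groups, at 2334, 1927 and 1565 bases, once sham lengths were set level with IR24h lengths for the typical gene. Of the 12806 genes compared, 25 had an implied length at least as unequal as that of Krt80. The sources do not say whether reads kept their strand. Exons of Krt7, Krt8 and Krt80 overlap antisense genes over 1.09, 5.16 and 4.11% of their bases, those of the other members over none.

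Levels of different keratins can be compared per length, by the authors' FPKM within a library. In sham libraries Krt8 led with 47.5 to 69.1 FPKM. Krt7 (8.81 to 13.0 FPKM) and Krt18 (7.72 to 9.86 FPKM) came next and overlapped, as did Krt80 (0.999 to 1.20 FPKM) and Krt23 (0.691 to 1.17 FPKM) below them. Krt19 (0.166 to 0.514 FPKM) and Krt20 (0 to 0.148 FPKM) were lowest. In IR24h libraries Krt8 again led, with 84.3, 242 and 175 FPKM in libraries 1 to 3, and Krt20 now followed with 26.8, 168 and 29.2 FPKM, among Krt18 (30.6, 49.95 and 84.0 FPKM) and Krt7 (17.2, 17.9 and 31.8 FPKM). Krt7 has a long gene model, which lowers its value per kb.

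As shares of the summed FPKM of the 7 keratins, Krt8 held 51.5, 49.5 and 52.4% in IR24h libraries 1 to 3, against 74.4, 71.6 and 72.7% in sham libraries 1 to 3. Krt20 held 16.4, 34.4 and 8.78% in IR24h libraries and at most 0.156% in sham libraries. Krt18 held 18.7, 10.2 and 25.2% in IR24h libraries, against 10.99, 11.6 and 10.4% in sham libraries, with IR24h library 2 below the sham values. Shares add up to a fixed total, so that a rise of Krt20 lowers the others.

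**Figure D3:**
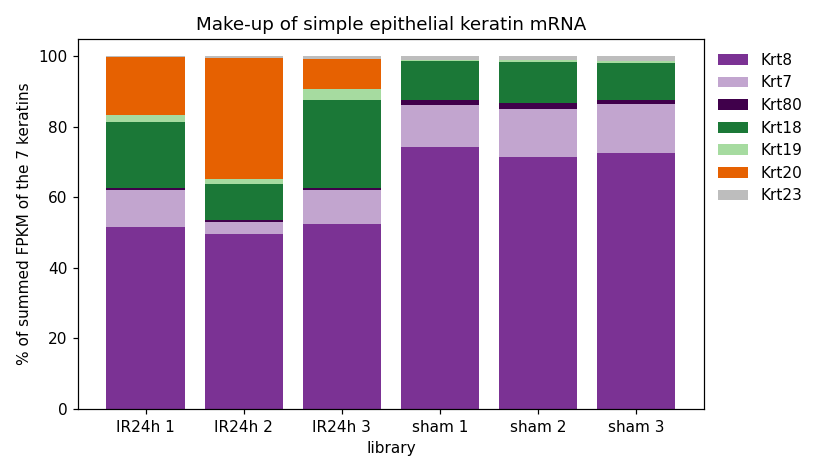
Share of each keratin in the summed FPKM of the 7 keratins, in percent, for every library. Krt8 took 49.5 to 52.4% in IR24h libraries and 71.6 to 74.4% in sham libraries, and Krt20 took 8.78 to 34.4% in IR24h libraries.

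Because type I and type II proteins pair, their mRNA ratios were formed in each library from counts per kb of exon. These ratios do not depend on how libraries are scaled. Krt8 exceeded Krt18 by 2.60, 4.58 and 1.97 times in IR24h libraries 1 to 3, against 6.77, 6.16 and 7.01 times in sham libraries 1 to 3. The excess of the type II partner was thus smaller in every injured library. The log2 ratio averaged 1.52 ± 0.62 in IR24h and 2.73 ± 0.10 in sham (SD, n = 3 each), a difference of −1.21, at p = 0.1 in an exact 2-sided permutation test over 20 assignments, the smallest p that 3 against 3 libraries allow. Krt7, Krt8 and Krt80 together exceeded Krt18, Krt19, Krt20 and Krt23 by 1.62, 1.08 and 1.602 times in IR24h libraries, against 7.32, 6.73 and 7.31 times in sham libraries. That log2 ratio differed by −2.33 (exact permutation p = 0.1, again the smallest possible). Per kb of exon, type I and type II mRNA were nearly level in IR24h library 2, where Krt20 was highest. By raw counts, not divided by length, type II exceeded type I by 1.44 times in that library.

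**Figure D4:**
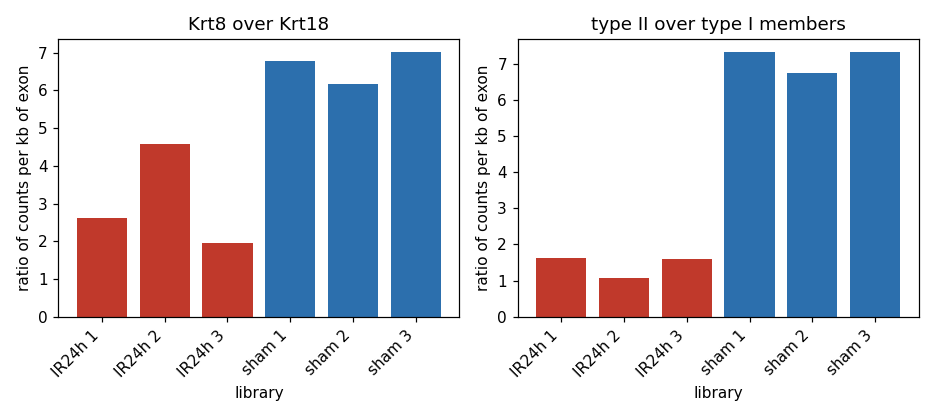
Ratio of Krt8 to Krt18 and of the type II to the type I members, from counts per kb of exon, for every library on a linear axis, with 1 bar for each library. Ratios of Krt8 to Krt18 were 1.97 to 4.58 in IR24h libraries and 6.16 to 7.01 in sham libraries, and those of type II to type I were 1.08 to 1.62 in IR24h libraries and 6.73 to 7.32 in sham libraries.

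The injured libraries did not vary alike across the group. Krt7, Krt18 and Krt19 were highest in IR24h library 3 and lowest in IR24h library 2, where the highest exceeded the lowest by 2.52, 2.39 and 1.93 times. Krt20 was highest in IR24h library 2 and lowest in IR24h library 3. Krt8 varied by 1.32 times among the IR24h libraries, less than its 1.55 times among the sham libraries.

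Krt7, Krt19 and Krt20 are also keratins of the urothelium, whose basal cells make Krt5, Krt14 and Krt15. Uroplakins, the membrane proteins that define urothelial surface cells (Upk1a, Upk1b, Upk2 and Upk3a), summed to 1.42, 0 and 8.30 CPM in IR24h libraries 1 to 3, against 1.03, 1.39 and 3.88 CPM in sham libraries 1 to 3. All 4 uroplakins were at 0 counts in IR24h library 2, the library with the most Krt20. Sham library 3, the highest of the sham libraries in uroplakins, held 5 of the 6 sham counts of Krt20. Krt5, Krt14 and Krt15 summed to 1.14, 4.19 and 13.4 CPM in IR24h libraries and to 0, 0 and 1.19 CPM in sham libraries. Over the whole list of 9 urothelial genes the sum was 2.91 to 77.5 CPM in IR24h libraries. In sham libraries it was 11.3 to 21.7 CPM. Most of the sham sums was Snx31 (14.5, 9.04 and 16.7 CPM in sham libraries 1 to 3). Most of the sum in IR24h library 3 was Psca (65.2 CPM). Of the 9 genes, 3, 5 and 1 were at 0 counts in IR24h libraries 1 to 3 and 2, 3 and 0 in sham libraries 1 to 3. Psca, a surface protein of urothelium and other epithelia, had 15, 11 and 746 counts in IR24h libraries, against 0, 3 and 8 in sham libraries (log2 fold change 6.82 ± 1.98, adjusted p = 0.055; 2.66 without IR24h library 3), and Snx31, a sorting nexin of the same list, fell (−3.52 ± 0.44, adjusted p = 0.00386). Of the list, 4 genes were tested, with 0 higher and 1 lower; over all genes tested the shares were 8.65% higher and 7.62% lower, and so few genes show little. IR24h library 3 and sham library 3, the highest in uroplakins, were also the highest of their group in Krt7, Krt8, Krt18, Krt19, Krt23 and Krt80. Without IR24h library 3 the log2 fold changes of Krt18 and Krt19 were 2.60 (adjusted p = 0.00746) and 4.18 (adjusted p = 0.0104). That of Krt7 was then 1.35 (adjusted p = 0.0857), and its call was lost. Krt8 (1.64, adjusted p = 0.0268) and Krt20 (10.64, adjusted p = 0.00545) stayed called without that library. The part of urothelium in the keratin differences was not tested.

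**Figure D5:**
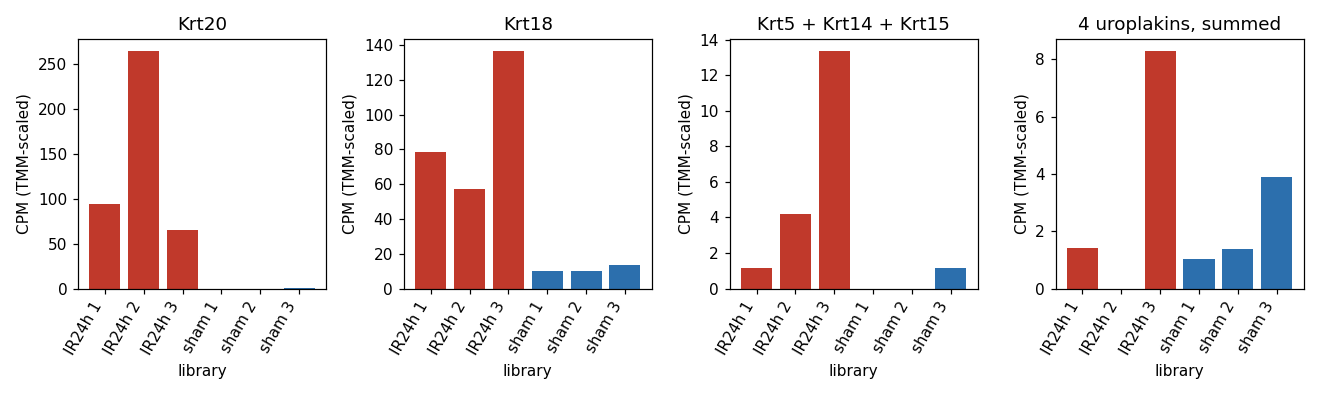
Level of Krt20, Krt18, the basal keratins Krt5, Krt14 and Krt15 (summed) and 4 uroplakins (summed) in every library, in TMM-scaled CPM on linear axes, with 1 bar for each library. The 4 uroplakins were at 0 in IR24h library 2, where Krt20 reached 265 CPM and the basal keratins 4.19 CPM. These uroplakins were highest at 8.30 CPM in IR24h library 3. Among sham libraries, both the uroplakins and Krt20 were highest in library 3.

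Other cell types that carry these keratins gave further values. Of 7 principal cell genes of the collecting duct, 0 were called higher and 1 lower, near the shares over all genes tested (8.65% higher and 7.62% lower). The lower gene was Aqp3, a water channel (−1.87 ± 0.41, adjusted p = 0.0239). The list summed to 325, 198 and 729 CPM in IR24h libraries 1 to 3, against 490, 570 and 601 CPM in sham libraries 1 to 3. Like Krt7, Krt18 and Krt19, this sum was highest in library 3 of each group and lowest of the injured libraries in IR24h library 2. No gene of this list was at 0 in any library. Of 5 mesothelial genes 3 were tested and 1 rose (8.65% of all genes tested did), Upk3b, a uroplakin of the mesothelium. It had 21, 11 and 87 counts in IR24h libraries and 2, 9 and 6 counts in sham libraries (3.61 ± 0.98, adjusted p = 0.0456). The IR24h libraries carried Upk3b through the filter on low counts, so that 1 of 3 rose shows little. Its call was lost without IR24h library 1 or 3 or any sham library (adjusted p up to 0.154). That list summed to 27.4 to 67.1 CPM in IR24h libraries and 75.0 to 83.1 CPM in sham libraries, with 1 of its genes at 0 in each IR24h library and 1 or 2 in sham libraries. Most of that sum was Gpm6a, a membrane glycoprotein gene named beyond the rule, with 21.3, 60.3 and 25.7 CPM in IR24h libraries and 76.0, 68.5 and 76.0 CPM in sham libraries. Msln, a defining marker of mesothelium, had 4, 21 and 44 counts in IR24h libraries, against 0, 0 and 5 counts in sham libraries. The part of these cells in the keratin values was not tested.

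The rest of the keratin family was hardly detected. Of the other 47 keratins, 30 had no count in any library and 2 passed the filter, Krt10 and Krt222, neither of them called. Krt10, a type I keratin of the upper epidermis, had 4.56 ± 1.56 CPM in IR24h and 6.37 ± 1.03 CPM in sham (SD, n = 3 each; log2 fold change −0.48 ± 0.36, adjusted p = 0.374). Krt222, a keratin-like gene, had 0.413 ± 0.371 CPM in IR24h and 0.852 ± 0.258 CPM in sham (adjusted p = 0.465). Krt12, the type I keratin of the cornea, lies 6.1 kb from Krt20 and had 9, 6 and 11 counts in IR24h libraries and 0 in all sham libraries, at least 13.0-fold higher against 3 counts over the sham group; 54.4% of its exon bases overlap an antisense gene. It missed the filter, and without a filter on low counts it was called (adjusted p = 0.0318). Krt5 had 4, 44 and 47 counts in IR24h libraries and 0, 0 and 6 in sham libraries, Krt14 had 0, 15 and 44 counts in IR24h libraries and 0, 0 and 6 in sham libraries, and Krt15 had 4, 23 and 62 counts in IR24h libraries and 0, 0 and 10 in sham libraries. These 4 genes were chosen after their values were seen.

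Genes whose proteins bind keratin filaments or anchor them in desmosomes, the spot junctions between cells, rose in part. Of 21 listed, 17 were tested, 5 rose, 0 fell and 12 were not called, with a median log2 fold change of 0.65, where all genes tested gave 8.65% higher and 7.62% lower and a median of 0.05. Ppl, periplakin, a plakin that links keratins to the cell border, had 305, 880 and 488 counts in IR24h libraries and 29, 60 and 53 counts in sham libraries. This was 43.7 ± 1.20 CPM in IR24h and 2.47 ± 0.702 CPM in sham (SD, n = 3 each; log2 fold change 4.14 ± 0.32, adjusted p = 0.000861), and the implied length was shorter in IR24h by 0.19 on the log2 scale. Plec, plectin, which crosslinks keratins to hemidesmosomes and other filaments, reached 255 ± 39.0 CPM in IR24h against 49.5 ± 1.26 CPM in sham (2.36 ± 0.25, adjusted p = 0.00205). Ppl and Plec stayed called with any 1 library left out. The desmosomal cadherin Dsg2 (1.39 ± 0.31), the integrin Itgb4 of hemidesmosomes (1.36 ± 0.31) and the desmosomal plaque gene Pkp2 (0.81 ± 0.22, the lowest of the called) also rose, with adjusted p = 0.0253, 0.0268 and 0.0468, and each of these calls was lost without any 1 of the sham libraries. Dsp, desmoplakin, which ties keratins to desmosomes, had 51.1 ± 29.7 CPM in IR24h and 19.9 ± 0.326 CPM in sham (1.36 ± 0.43, adjusted p = 0.0693), and Jup, plakoglobin, had 126 ± 33.2 CPM in IR24h and 138 ± 13.9 CPM in sham (adjusted p = 0.776). Dsg2, Itgb4, Dsp and Jup were named beyond the rule, after their values were seen.

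Of 15 other intermediate filament genes 8 were tested, 5 rose, 0 fell and 3 were not called, with a median log2 fold change of 1.29, beside 8.65% higher and 7.62% lower and a median of 0.05 over all genes tested. Vim, vimentin, the filament of mesenchymal cells, had 476, 994 and 2893 counts in IR24h libraries and 424, 436 and 527 counts in sham libraries. In CPM its mean was 124 ± 112 in IR24h and 24.5 ± 3.74 in sham (SD, n = 3 each; log2 fold change 2.33 ± 0.61, adjusted p = 0.0408), with IR24h library 3 far above the rest. Without that library its log2 fold change was 1.27. Des, desmin, a filament of muscle and of some perivascular and glomerular cells, rose by 2.34 ± 0.48 (adjusted p = 0.0191). Nefm, a neurofilament, rose by 2.26 ± 0.62 (adjusted p = 0.0462), and by 1.56 without IR24h library 2. It had 10, 65 and 12 counts in IR24h libraries and 6, 6 and 11 in sham libraries, and the IR24h libraries carried it through the filter on low counts. The call of Nefm was lost without that filter, with scaling by library totals alone, with limma-voom and with a replicate block. The nuclear lamins Lmna (1.03 ± 0.25, adjusted p = 0.0332) and Lmnb2 (1.41 ± 0.29, adjusted p = 0.0188) rose too.

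Of 12 general epithelial genes, all of them tested, 4 rose, 1 fell and 7 were not called, with a median log2 fold change of 0.996. Over all genes tested, 8.65% were higher and 7.62% lower, so the 1 that fell is near that share. The claudins Cldn3 (2.03 ± 0.48, adjusted p = 0.0296) and Cldn4 (1.95 ± 0.32, adjusted p = 0.00926), proteins of tight junctions, rose, as did the membrane protease St14 (1.59 ± 0.30, adjusted p = 0.015) and the epithelial transcription factor Grhl2 (1.41 ± 0.35, adjusted p = 0.0354). Cdh16, the kidney-specific cadherin, fell to 398 ± 86.1 CPM in IR24h, against 871 ± 64.5 CPM in sham (−1.13 ± 0.28, adjusted p = 0.0356). Cdh1, E-cadherin, had 196 ± 90.3 CPM in IR24h and 151 ± 14.8 CPM in sham (adjusted p = 0.488), and was named beyond the rule as a general epithelial marker. Each call among the other filament and the general epithelial genes was lost without any 1 of the sham libraries.

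The genes most like the mean keratin profile across the 6 libraries were found by Pearson correlation of log2 CPM with the mean centred profile of the 7 members, over 13602 other genes. Members were not brought to equal spread, so those with large changes, above all Krt20, weigh most in this mean. Krt23 overlapped between the groups and Krt80 went the other way in counts. The most similar genes were Junb, an AP-1 transcription factor subunit (r = 0.997), Zfat, a zinc finger gene (0.997), and Vat1, a vesicle membrane protein gene (0.997). Next came Wdyhv1, an N-terminal glutamine amidase gene (0.996), and Fabp4, a fatty acid binding protein gene (0.996). These points share the libraries and the split between the groups, so the values are descriptions. Junb had 57.0, 79.8 and 94.0 CPM in IR24h libraries, against 11.3, 11.6 and 17.7 CPM in sham libraries, and its implied length was longer in IR24h by 0.35 on the log2 scale. Of the 5, 4 were called higher and Zfat was not called (0.61 ± 0.32, adjusted p = 0.218). The calls of Vat1, Wdyhv1 and Fabp4 were lost without sham library 2, that of Vat1 also without sham library 1. Wdyhv1 had 2, 3 and 5 counts in sham libraries, and the IR24h libraries carried it through the filter on low counts.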

How the data were processed

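An AMBION kit was used for RNA and a TruSeq RNA guide for the libraries, per the labels' protocols. CASAVA 1.8, TopHat2 2.0.6 and the builds mm10 and GRCh38 are named in the submitters' processing notes; the gene identifiers are those of mouse, and neither the counter nor the annotation is named there. The authors deposited, per the file headers, raw counts of reads per gene and FPKM for 6 libraries. Of 22040 genes, 83 without a sham value were left out, 26 symbols turned into dates were restored by identifier, and 21933 identifiers matched GENCODE M21. Counts were tested with edgeR 4.0.16 in R 4.3.3 after its expression filter and TMM scaling, 2-sided; the SE comes from the F statistic. DESeq2 1.42.0 and limma 3.58.1 (voom) were alternatives, with other scalings and filters, a replicate block, and each library left out. The implied gene length is count over FPKM and library total. In each sham library it was also divided by the median ratio of sham to IR24h lengths, so the typical gene is equal by construction. Lengths were compared at 5 or more counts in each library with a tolerance of 0.01 (log2). Coordinates are from GENCODE M21 (GRCm38, the assembly of mm10). Lengths per kb in ratios are its exon unions. Log2 CPM for correlations used a prior count of 2. The test was tried on simulated data. The members, gene lists and tests were chosen with earlier results of these data known. Named genes are the members, the called genes with the highest and the lowest change and up to 2 more by mean CPM of each list, and the 5 most similar genes; others were named after their values were seen. Amplified reads are not independent molecules, so counting intervals leave out other error. Tables and figures were made with SciPy 1.17.1, NumPy 2.4.6, pandas 2.3.3, matplotlib 3.10.9 and Python 3.11.15.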

Additional observations from a re-analysis of the deposited data

How the results depend on the processing

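The 5 keratins that rose kept that direction in all alternatives, and Krt23 was called in none. The implied gene length as an offset, added after the data were seen, reversed Krt80 to 0.996 and left 0 keratins lower. Scaling by library totals alone put the median of all log2 fold changes at −0.39, against 0.05 with TMM, and 3 keratins were then higher; the genes called were 398 higher and 611 lower, against 1177 and 1037, and the lists had 2 (keratin binding), 1 (other filaments) and 0 (general epithelial) higher and 0 general epithelial lower members. DESeq2 called 2073 genes higher and 1695 lower, and 8 keratin binding genes. Limma-voom called 3 other filament genes higher, with 1006 genes higher and 1197 lower in all. Among the other keratins 1 was called without a filter on low counts (Krt12) and 1 with mitochondrial genes left out (Krt5). Deviations of the same-numbered libraries correlated at −0.109, 0.12 and 0.233, and those of differently numbered libraries at −0.265 to 0.179. So few values, which overlap, cannot tell whether the replicate numbers pair the libraries. With the replicate block 3 keratin binding, 3 other filament and, of the general epithelial genes, 0 lower members were called, with 814 genes higher and 843 lower in all, and no call among the 7 keratins changed. With any 1 library left out, 3 to 5 keratins were higher and 0 to 1 lower, 0 to 1 other keratins higher, 2 to 8 keratin binding genes higher and 0 to 2 lower, 0 to 6 other filament genes higher, and 0 to 6 general epithelial genes higher and 0 to 1 lower. Over all genes this gave 246 to 3297 higher and 196 to 3382 lower, both highest without IR24h library 2 and lowest without a sham library. With any 1 library left out, the log2 ratio of Krt8 to Krt18 differed by −1.55 to −0.94 and that of type II to type I by −2.43 to −2.14. By raw counts these differences were −1.21 and −2.61, and by the authors' FPKM −1.13 and −2.22. The replicate block gave an exact sign-flip p of 0.25 for each ratio. The causes were not tested.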
